A study of Mus musculus with 4 samples.

Results

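The exon junction complex (EJC) is deposited on spliced mRNA just upstream of exon-exon junctions and travels with the message to the cytoplasm, where ribosomes remove it. Its core is the RNA helicase eIF4A3, clamped on RNA by the MAGOH-RBM8A heterodimer and joined by CASC3. RNPS1, ACIN1, PNN and SAP18 form the outer ASAP and PSAP assemblies, which connect the core to splicing control. The 9 genes described here are Eif4a3, Magoh, its paralog Magohb, Rbm8a and Casc3 of the core, and Rnps1, Acin1, Pnn and Sap18 of the outer assemblies. They were taken by name from the 37311 gene identifiers of the count tables, and all 9 were among the 13809 genes that passed the filter on low counts.

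The cells were J1 mouse embryonic stem cells of strain 129S4/SvJae, kept without feeder cells on gelatin in serum and leukaemia inhibitory factor. All had been infected with short hairpin RNAs against eIF4a3 (sheIF4a3-2 and sheIF4a3-3), selected with puromycin for 3 days, and treated on day 4.5 with cycloheximide at 0.1 mg/mL for 1 min to hold ribosomes on mRNA. Ribosome protected fragments (RPF, also called footprints) and total RNA were each sequenced from 2 biological replicates, giving 4 libraries. Every library therefore comes from knockdown cells: cells without hairpins were not analysed here, and the depth of the knockdown cannot be read from these values. The labels do not say which hairpin each replicate carried. Gene counts ran from 7615277 to 9434987 per library. All 8 embryonic stem cell markers checked passed the count filter, with a summed level of 5773 to 6208 CPM (counts scaled by library size after trimmed mean of M-values, TMM, normalisation) in RPF and 3760 to 4145 CPM in total RNA, while 3 of 7 fibroblast markers passed, with sums of 11.5 to 12.9 and 5.15 to 5.57 CPM. Of trophectoderm markers 5 of 6 passed (140.9 to 146 CPM in RPF and 51.5 to 63.2 CPM in total RNA), and of primitive endoderm markers 6 of 6 (53.1 to 71.9 and 36.7 to 53.1 CPM). The part of such cells in the members' values was not tested.

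Several of these genes have near-identical copies in the mouse genome, which bears on what a short read can say about each of them, so the coding sequences are shown before the counts. The stretches below are coding bases 1 to 150 of GENCODE M21 (GRCm38) transcripts, written 5′ to 3′, with capitals at bases that differ from the other sequence of the pair. Magoh lies on chromosome 4 and Magohb on chromosome 6, and they encode nearly the same protein.
Magoh: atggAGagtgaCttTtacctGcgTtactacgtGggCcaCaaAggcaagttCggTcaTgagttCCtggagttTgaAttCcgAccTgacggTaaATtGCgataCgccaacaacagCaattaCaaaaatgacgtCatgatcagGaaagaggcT
Magohb: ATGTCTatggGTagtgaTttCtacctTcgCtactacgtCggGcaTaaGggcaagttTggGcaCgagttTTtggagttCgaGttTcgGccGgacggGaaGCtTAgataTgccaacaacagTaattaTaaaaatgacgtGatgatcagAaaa
Their coding sequences, of 438 and 444 bases, were identical at 80.2% of aligned positions, with 6 extra bases in Magohb. The longest run of identical bases was 17, so no 28-base stretch, about the length of a footprint, was common to both.

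Eif4a3 lies on chromosome 11. Gm8994 on chromosome 6, which RefSeq names Eif4a3l1, is a copy of it.
Eif4a3: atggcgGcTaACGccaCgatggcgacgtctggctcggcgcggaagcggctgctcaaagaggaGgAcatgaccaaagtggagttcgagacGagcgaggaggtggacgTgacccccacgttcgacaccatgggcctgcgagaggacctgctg
Gm8994: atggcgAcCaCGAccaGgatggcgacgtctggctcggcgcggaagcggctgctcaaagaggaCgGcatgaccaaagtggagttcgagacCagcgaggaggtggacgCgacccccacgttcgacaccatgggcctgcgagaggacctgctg
The 1233 coding bases of this pair differed at 47 positions, and identical runs reached 119 bases. Rbm8a on chromosome 3 and Rbm8a2 on chromosome 1 were closer still, with 12 differences in 522 coding bases.
Rbm8a: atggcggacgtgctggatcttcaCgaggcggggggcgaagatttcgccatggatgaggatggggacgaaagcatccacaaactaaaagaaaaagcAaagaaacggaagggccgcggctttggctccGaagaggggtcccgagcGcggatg
Rbm8a2: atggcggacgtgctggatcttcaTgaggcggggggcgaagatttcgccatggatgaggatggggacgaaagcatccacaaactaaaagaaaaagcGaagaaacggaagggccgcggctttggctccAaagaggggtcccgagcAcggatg
For Sap18 on chromosome 14 and Sap18b on chromosome 8, all 516 coding bases were the same.

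Over whole coding sequences, 54.4% of the 28-base stretches of Eif4a3, 54.3% of those of Rbm8a, 76.9% of those of Rnps1 and 100% of those of Sap18 also occur in transcripts of a gene elsewhere in the genome. Of the coding stretches of Eif4a3, 42.4% occur in Gm5580, 40.9% in Gm5576 and 36.6% in Gm8994, with overlap between these shares. Gm5580, Gm5576 and Gm8994 all lie on chromosome 6 and have no identifier in the count tables. The Rnps1 stretches are held by the processed pseudogene Gm9825, which also has no identifier there. Magoh, Magohb and Pnn had 0 shared coding stretches. Over the whole Magohb transcript, which total RNA reads cover, 29.0% of stretches were shared, nearly all with the overlapping processed pseudogene Gm44958. For Casc3 (9.53%) and Acin1 (9.26%) the shared stretches lie almost entirely in annotated genes that overlap them on the opposite strand, Gm12359 for Casc3 and mainly 1700123O20Rik for Acin1. Over all coding transcripts of each gene, 3 of the 9 members shared at least 50% of their coding stretches with another gene, against 8.18% of the 12655 tested protein-coding genes. The count tables tally reads with more than 1 alignment apart from the genes (20.6% to 21.0% of tallied reads in RPF and 16.5% to 16.6% in total RNA). Even so, Sap18 held 1707 and 1495 counts in the RPF libraries, where Sap18b held 0 in each. In total RNA replicates 1 and 2 Sap18 held 961 and 987 counts and Sap18b 4 and 9. The processed pseudogene Gm12219, with 20.2% of the Sap18 coding stretches, held 2 counts in each RPF library and 0 in total RNA. Rbm8a2 had 0 or 1 count in every library. How the shared stretches affected the counts of these members was not tested.

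**Figure D1:**
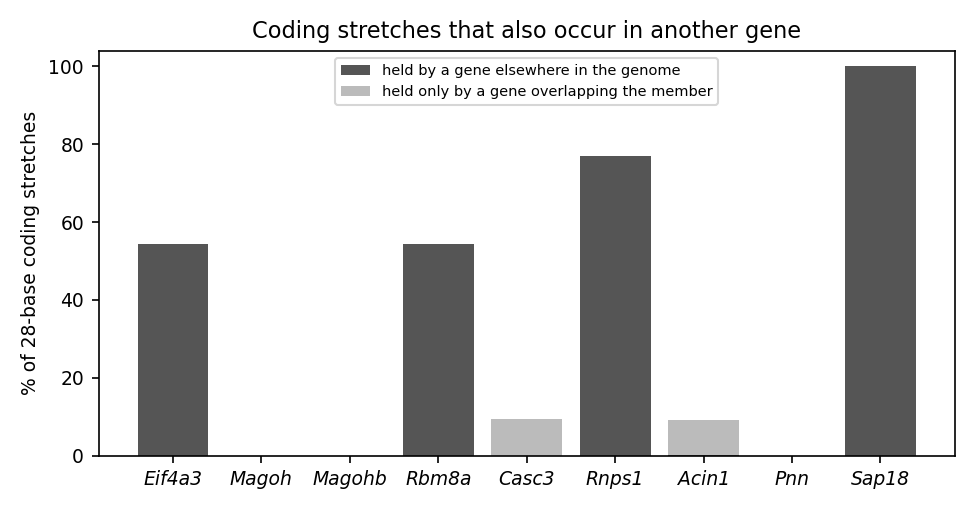
Percentage of the 28-base stretches in the longest coding sequence of each gene that also occur in an annotated transcript of another gene. Dark bars count stretches held by a gene elsewhere in the genome and light bars those held only by a gene that overlaps the member; Sap18 stands at 100%, Rnps1 at 76.9%, and Magoh, Magohb and Pnn at 0.

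In the edgeR fit over all tested genes, 7 of the 9 passed as higher in RPF and 0 as lower, where 20.5% of all tested genes were called higher and 21.2% lower. In 4 of the 9 the called difference was at least 2-fold, against 9.41% of all tested genes. The median log2 ratio of RPF to total RNA (called the ratio below) was 0.87 over the 9 members and -0.02 over all tested genes. Both RPF libraries lay above both total RNA libraries in all 9 members, as they did for 34.9% of tested genes. These counts describe a chosen list and were not tested as a list. Total RNA reads cover whole transcripts and footprints mostly the coding part, so a ratio also depends on how much of a gene is coding. A ratio is therefore not an absolute rate of translation, and the order of genes by ratio can change with correction for coding share. With that correction the ratio of Sap18 rose from 1.16 to 1.57 and that of Magoh fell from 1.31 to 1.1, which reversed their order. The correction took the coding share over the merged exons of all annotated transcripts, so corrected ratios rest on that gene model.

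**Figure D2:**
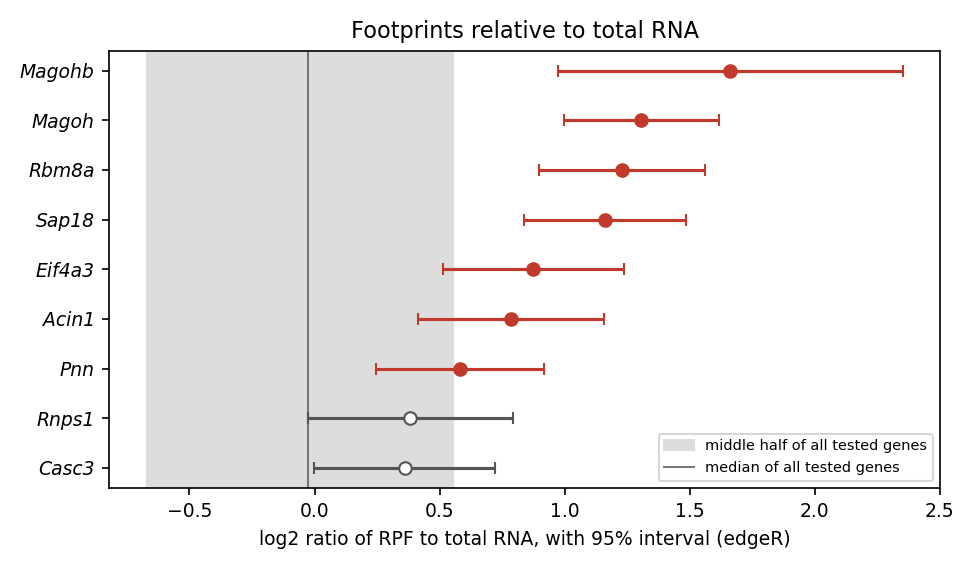
Log2 ratio of RPF to total RNA of each member with its 95% interval from the edgeR fit; filled red points passed at an adjusted p under 0.05 and open points did not. The grey band spans the 25th to 75th percentile of all tested genes and the line marks their median of -0.02; Magohb is highest at 1.66 and Casc3 lowest at 0.36.

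Eif4a3 (ENSMUSG00000025580.9), the hairpin target and the ATP-dependent RNA clamp of the complex, stood at 211.6 and 192.8 CPM in RPF replicates 1 and 2 and at 120.1 and 100.4 CPM in total RNA replicates 1 and 2. The groups did not overlap, and replicate 1 was the higher in both fractions. Footprints were 1.83-fold higher (log2 ratio 0.87 ± 0.15 SE, adjusted p = 0.00477 by edgeR's quasi-likelihood test). This ratio, not corrected for coding share, placed the targeted gene at the 85.8th percentile of all tested genes. After correction for the coding share of merged exons, which was 58.1% in Eif4a3, the ratio was 0.66 (adjusted p = 0.0132 by the same test). A test of the uncorrected ratio against a fold of 1.5 did not call Eif4a3 (adjusted p = 0.066).

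The point estimates of both partners in the clamp lay above that of Eif4a3, a difference between genes that was not tested. Magoh (ENSMUSG00000028609.6), whose product locks eIF4A3 in its closed form on RNA, had 154.6 and 149.5 CPM in RPF and 62.2 and 60.7 CPM in total RNA. Its replicates lay close together, and the fractions were 2.47-fold apart (1.31 ± 0.13 SE, adjusted p = 0.000891). Rbm8a (ENSMUSG00000038374.6), which encodes the other subunit, also known as Y14, had 325.5 and 336.3 CPM in RPF and 144.1 and 138.4 CPM in total RNA. Its ratio of 1.23 ± 0.14 (adjusted p = 0.0012) was a 2.34-fold difference, again without overlap of the groups.

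Magohb (ENSMUSG00000030188.5) was the scarce paralog. It had 89 and 76 counts in RPF and 41 and 30 counts in total RNA, which is 11.5 and 11.1 CPM against 4.01 and 3.09 CPM. Its ratio, 1.66 ± 0.29 (95% interval 0.97 to 2.35, adjusted p = 0.0048), was the highest point estimate among the members, but its interval was also the widest and held that of Magoh. Magoh had 13.5 times the counts of Magohb in each RPF library, and 15.5 and 19.6 times in total RNA replicates 1 and 2. Per kilobase of merged coding sequence it had 15.2 and 15.3 times the footprints in RPF replicates 1 and 2. Per kilobase of merged exon it had 34.7 and 43.9 times the total RNA. With the length of the longest coding transcript, mean total RNA was 88.8 CPM per kilobase for Magoh and 4.62 for Magohb. The difference between fractions in the log2 ratio of counts was -0.37, with both RPF ratios below both total RNA ratios. The exact permutation p was 0.33, which is the smallest that 2 against 2 libraries allow, so this design cannot reach the threshold and the test says nothing either way.

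Casc3 (ENSMUSG00000078676.3, also called Barentsz or MLN51), which joins the complex late and acts mainly in the cytoplasm, did not pass. It had 91.1 and 109.7 CPM in RPF and 73.1 and 83.3 CPM in total RNA, so that the nearest RPF and total RNA values lay closer together than the RPF replicates did. The ratio was 0.36 ± 0.15 with a 95% interval from -0.0034 to 0.72 (adjusted p = 0.1). Without RPF replicate 1 it passed (0.49, adjusted p = 0.0366), and with library size as the only scaling it was -0.066. Among the core genes, 4 of 5 passed as higher, with a median ratio of 1.23. Of all tested genes 20.5% passed as higher, with a median of -0.02.

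**Figure D3:**
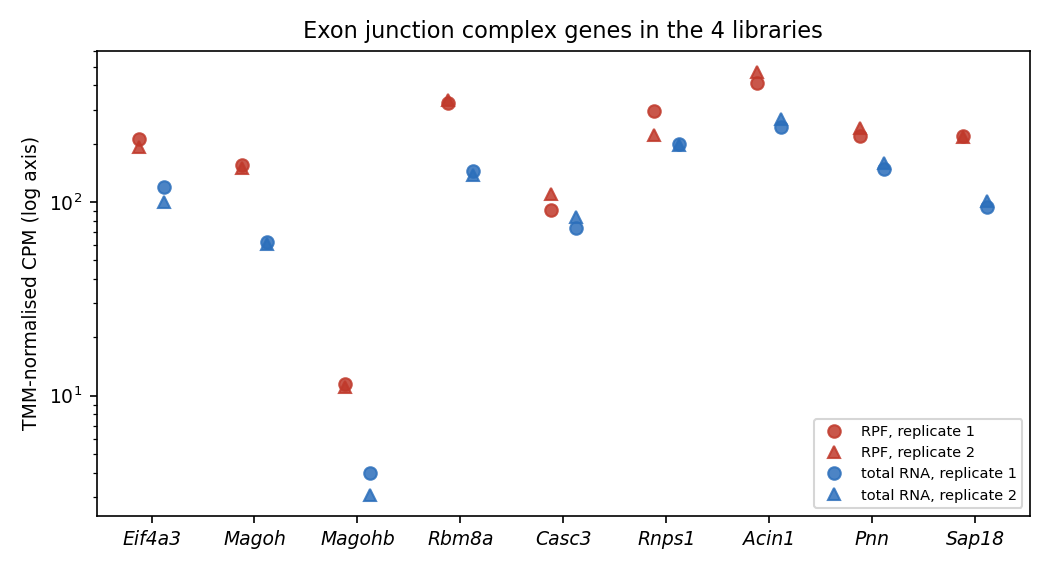
TMM-normalised CPM of each member in the 4 libraries on a log axis, with RPF in red, total RNA in blue, circles for replicate 1 and triangles for replicate 2. The red points lie above the blue points in all 9 genes, by the least in Casc3 and Rnps1, and Magohb lies lowest in both fractions.

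In the outer assemblies 3 of 4 genes passed as higher, beside 20.5% of all tested genes, with a median ratio of 0.68. Sap18 (ENSMUSG00000021963.9), the small subunit common to ASAP and PSAP, had 220.2 and 217.5 CPM in RPF and 93.9 and 101.6 CPM in total RNA. Its replicates were nearly equal and its ratio was 1.16 ± 0.14 (2.24-fold, adjusted p = 0.00132), with the reservation of its copy given above. Acin1 (ENSMUSG00000022185.11), the large scaffold of ASAP, had 412.2 and 469.3 CPM in RPF and 243.8 and 267.7 CPM in total RNA. Its footprints were 1.72-fold higher (0.78 ± 0.16, adjusted p = 0.00777). This call was lost without total RNA replicate 1 (ratio 0.72 ± 0.31, adjusted p = 0.081), with library size only (ratio 0.36, adjusted p = 0.122) and against a fold of 1.5 (adjusted p = 0.14).

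Pnn (ENSMUSG00000020994.4) takes the place of ACIN1 in PSAP. It had 218.7 and 239.9 CPM in RPF and 147.4 and 159.2 CPM in total RNA, a 1.5-fold difference between groups that did not overlap (0.58 ± 0.14, adjusted p = 0.0162). Without either total RNA library the ratio was about as large but its SE rose and the call was lost (0.53 ± 0.28, adjusted p = 0.159 without replicate 1, and 0.64 ± 0.28, adjusted p = 0.096 without replicate 2). It was also lost with library size only (ratio 0.15, adjusted p = 0.462) and against a fold of 1.5 (adjusted p = 0.53). Rnps1 (ENSMUSG00000034681.9), an RNA-binding splicing regulator present in both assemblies, had 293.8 and 222.3 CPM in RPF against 198.0 and 197.9 CPM in total RNA. The total RNA values were almost equal while the RPF values differed 1.32-fold, and the ratio of 0.38 ± 0.17 (95% interval -0.027 to 0.79) did not pass (adjusted p = 0.117). Rnps1 passed without RPF replicate 2 (0.57, adjusted p = 0.0214) and stood at 0.17 without RPF replicate 1. It also passed after correction for the coding share of merged exons, 17.9% in Rnps1 (0.65, adjusted p = 0.023 by edgeR's quasi-likelihood test). These merged exons include 6 annotated transcripts with a retained intron, and a correction on the longest coding transcript was not run. With library size only the ratio of Rnps1 was -0.057.

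The effect of library size only is a common shift. It moved the median ratio of all tested genes from -0.02 to -0.45, and the share of calls that were higher from 49.2% to 19.8%. Measured from that median, no member moved by more than 0.009 between the scalings: Eif4a3 stood 0.90 above it under both, Casc3 0.38 and 0.39, and Rnps1 0.41 and 0.40.

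The log2 ratio of replicate 1 to replicate 2 ran from -0.27 in Casc3 to 0.40 in Rnps1 in the RPF libraries. In total RNA it ran from -0.19 in Casc3 to 0.37 in Magohb. Its size exceeded the median of all tested genes (0.30 in RPF and 0.22 in total RNA) in 1 of 9 members in RPF and in 2 of 9 in total RNA.

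**Figure D4:**
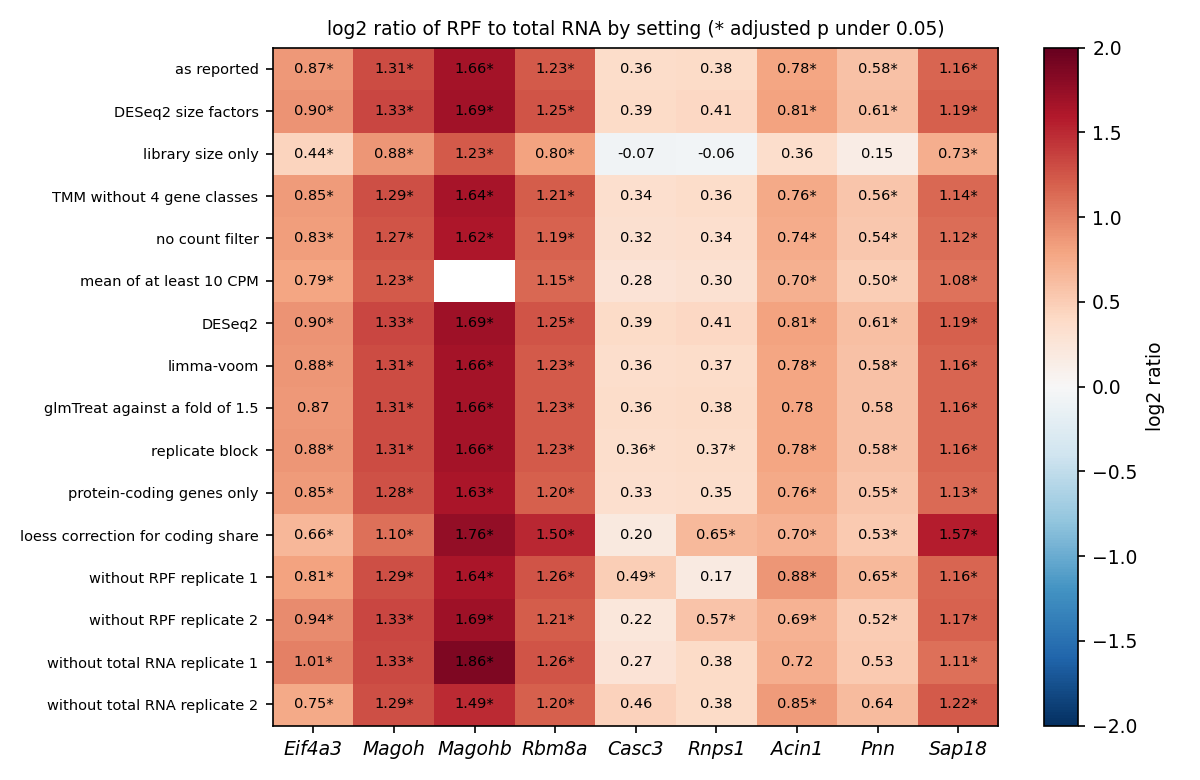
Log2 ratio of RPF to total RNA of each member under the reported fit (top row) and 15 alternatives, with an asterisk where the adjusted p was under 0.05 and a blank where the gene was filtered out. Magoh, Rbm8a and Sap18 carry an asterisk in every row and Magohb in every row where it was tested, while Casc3 and Rnps1 turn slightly negative with library size only.

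Levels of different genes can be compared only per length. The lengths used here include the shared stretches described above, whose effect on these levels was not tested. Per kilobase of coding sequence, RPF density was highest for Rbm8a at 591 ± 13.7 CPM (SD, n = 2), followed by Sap18 (366 ± 3.24), Magoh (347 ± 8.08), Rnps1 (281 ± 55.1) and Eif4a3 (164 ± 10.8). Pnn (105 ± 6.89) and Acin1 (103 ± 9.42) overlapped in their replicates, and Casc3 (47.9 ± 6.28) and Magohb (22.8 ± 0.610) came last. All other neighbours in this order were apart in both libraries. The median tested protein-coding gene had 15.0 CPM per kilobase of coding sequence, so all 9 members lay above it, Rbm8a at the 98.2nd percentile and Magohb at the 59.8th.

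Per kilobase of exon, total RNA had another order. Magoh was highest at 79.8 ± 1.45 CPM (SD, n = 2), then Eif4a3 (51.9 ± 6.55), Rbm8a (43.9 ± 1.25), Rnps1 (38.6 ± 0.0131), Pnn (26.6 ± 1.45) and Acin1 (24.3 ± 1.61). Casc3 (18.2 ± 1.68) and Sap18 (18.0 ± 1.01) overlapped in their replicates, and Magohb was lowest at 2.06 ± 0.377, at the 29.1st percentile of tested protein-coding genes. Per length, Rbm8a RNA was 0.792 and 0.910 times that of Eif4a3 in total RNA replicates 1 and 2, whereas Rbm8a footprints were 3.39 and 3.84 times those of Eif4a3 in RPF replicates 1 and 2. For Magoh and Magohb together the values were 1.47 and 1.70 times Eif4a3 in total RNA and 2.19 and 2.33 times in RPF. As counted, Eif4a3 thus had a lower footprint density than Rbm8a and Magoh in both libraries, and a higher one than Magohb. Shared coding stretches made up 54.4% in Eif4a3 and 54.3% in Rbm8a, but 0 in Magoh and Magohb. Their part in these differences was not tested. With the lengths of the longest coding transcript in place of merged exons, the total RNA level of Rnps1 became 103 CPM per kilobase and ranked highest. That of Acin1 became 54.0, that of Pnn 44.0 and that of Magohb 4.62, still the lowest, so RNA levels and their order depend on the gene model.

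**Figure D5:**
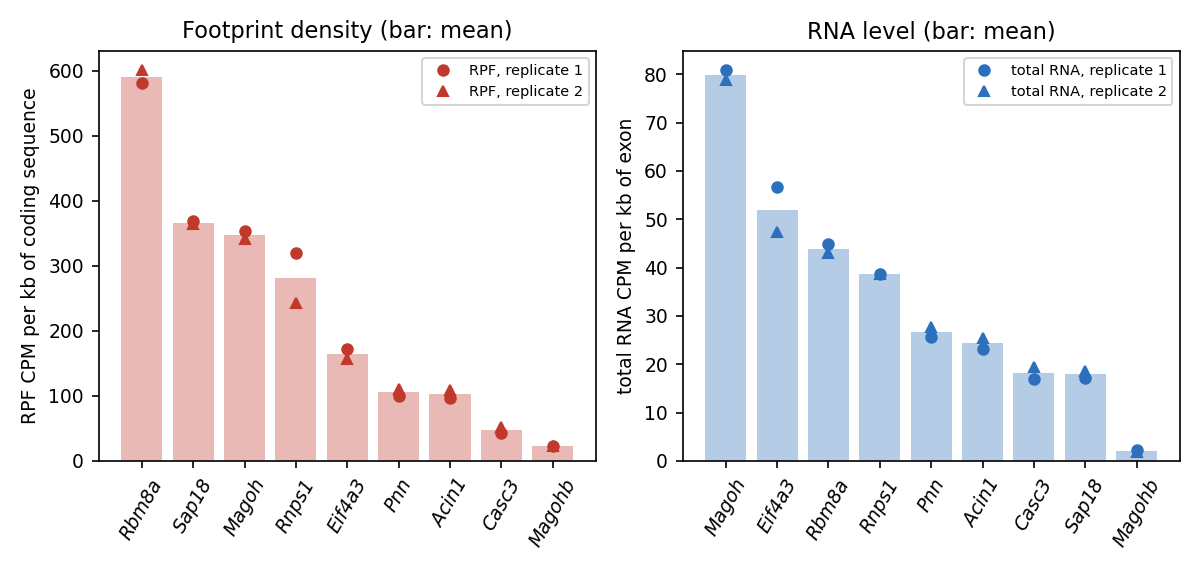
Left, RPF CPM per kilobase of merged coding sequence, and right, total RNA CPM per kilobase of merged exon, for each member in falling order; bars are means of 2 libraries and points the libraries. Rbm8a leads in footprints at 591 and Magoh in RNA at 79.8, and Magohb is last in both.

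The members differ widely in gene structure. Coding sequence made up from 11% (Sap18) to 58.1% (Eif4a3) of their exons, with a median of 37.8% against 35.8% over tested protein-coding genes. Transcripts with a retained intron were annotated for 6 of 9 members and for 58.7% of tested protein-coding genes. Acin1 had the most, with 9 of 26 transcripts, followed by Rnps1 with 6 of 11. A start codon (the letters ATG, in any frame) preceded the coding start in the longest coding transcript of 3 of 9 members (Casc3 with 1, Rnps1 with 2 and Acin1 with 4), against 49.1% of tested protein-coding genes. Casc3 and Rnps1, the members that did not pass, are among these, but Acin1 passed, and with 9 genes no relation was tested.

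Of 27 related genes outside the members, 26 were matched by symbol and tested. They comprise loading, disassembly and import factors, export and cap-binding partners, nonsense-mediated decay factors that read the complex, and the closest relatives of Eif4a3. In this group 11 of 26 were higher in RPF and 3 were lower, beside 20.5% and 21.2% of all tested genes, with a median ratio of 0.29. Scaled by library size alone, 4 of 26 passed as higher and 6 as lower, where 8.88% and 35.9% of all tested genes did. Without total RNA replicate 2, 7 passed as higher and 3 as lower, beside 11.8% and 13.5% of all tested genes.

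Among the relatives of the helicase, Eif4a1 passed and Eif4a2 did not. Eif4a1, the helicase subunit of the cap-binding complex, had 5070 and 4155 CPM in RPF and 2268 and 1653 CPM in total RNA, and its ratio was the highest of the group (1.23 ± 0.27, adjusted p = 0.0107). Eif4a2, its paralog, had 979.2 and 978.9 CPM in RPF and 1243 and 1120 CPM in total RNA, and did not pass (-0.27 ± 0.18, 95% interval -0.70 to 0.15, adjusted p = 0.263). At the coding level Eif4a3 was identical to Eif4a1 at 65.7% and to Eif4a2 at 65.1% of aligned positions, with no identical run above 23 bases.

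The RNA helicase Ddx39b, also known as UAP56, which acts in splicing and mRNA export (1.16 ± 0.17, adjusted p = 0.00263), and Smg9, a regulator of the SMG1 kinase (1.08 ± 0.18, adjusted p = 0.00411), followed Eif4a1 at the top. Smg1, the kinase that phosphorylates UPF1, was lowest, with 87.3 and 108.2 CPM in RPF and 277.2 and 297.5 CPM in total RNA (-1.56 ± 0.16, adjusted p = 0.00098). Smg5 (-0.96 ± 0.14, adjusted p = 0.00263), an adaptor that binds phosphorylated UPF1, was lower too. In Smg1 and Smg5 both RPF libraries lay below both total RNA libraries, as they did for 37.9% of all tested genes.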

How the data were processed

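For each library the authors deposited 1 table of unnormalised gene counts, whose closing HTSeq tallies were left out of library sizes. Per the submitters' processing notes, HTSeq 0.11.2, TopHat2 2.1.1, Bowtie 1.2.3 and, on their side, edgeR 3.26.8 were used with build mm9. The sources used here do not give the strand setting, the annotation release or how runs were joined. Symbols, lengths and transcript sequences came from GENCODE M21 (GRCm38), matched by Ensembl identifier without version (32621 of 37311 identifiers), and Eif4a3l1 was matched to Gm8994 through RefSeq synonyms. No coordinates are given, since the builds differ.

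RPF was compared with total RNA in edgeR 4.0.16 (R 4.3.3, limma 3.58.1) by the quasi-likelihood test, with trimmed mean of M-values (TMM) scaling, filterByExpr (minimum count 10, minimum total 15), two-sided tests and Benjamini-Hochberg adjustment over all 13809 tested genes at 0.05. The SE is the size of the ratio over the square root of F. On simulated counts for these 13809 genes, 200 changes were planted and all genes shared a common dispersion. The fit recovered 41% of planted 2-fold and 97% of planted 4-fold changes, with 5 false calls. In the data 2835 genes were called higher and 2930 lower, so these shares do not give the power of the comparison itself. A count of 0 allows up to 3 counts, or 0.318 to 0.394 CPM by library size without TMM scaling, for counting error only.

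Shared stretches of 28 bases were sought in all M21 transcripts, both strands. Named genes were all members, their listed copies, Eif4a1 and Eif4a2, the 3 highest and 3 lowest ratios among passing genes of the related list, and the 5 genes nearest to Eif4a3 in pattern. A gene that this rule names and a coding sequence are not reported here. Of the listed copies, Eif4a3l1 (Gm8994) has no identifier in the count tables, and Eif4a3l2 and Magoh-ps1 were not matched by symbol. Of the related list Ddx39a was not matched by symbol. Genes that overlap or hold stretches of a member were named after their values were seen. The members and lists were chosen with earlier results of these data known. Alternatives were other scalings, filters and tools (DESeq2 1.42.0, limma-voom, glmTreat), a replicate block, coding genes only, a loess correction for coding share and leaving out each library.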

Additional observations from a re-analysis of the deposited data

How the results depend on the processing

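Of the members' ratios under the alternatives, 119 kept their direction and side of the threshold, 8 lost the call, 5 gained it and 2 changed sign, those of Casc3 (-0.066) and Rnps1 (-0.057) with library size only. With that scaling 1226 genes were higher and 4957 lower, the related list had 4 higher and 6 lower, and the members' median was 0.44. Against a fold of 1.5 (glmTreat) the counts were 1155 higher and 1549 lower, with 4 members and 4 related genes higher. The members' median was 0.75 at a mean of at least 10 CPM, which removed Magohb, and 0.70 after correction for coding share. The numbers of higher members ran from 4 to 9 over all alternatives, and lower members were 0 in each.

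With a replicate block, 4257 of 13809 tested genes were higher and 4365 were lower. Of the 26 related genes 14 were higher and 5 lower, and all 9 members were higher, Casc3 and Rnps1 included. Deviations of same-numbered libraries correlated at r = 0.41 across genes, but the labels do not say that a number marks a shared lysate, so the numbers were not taken as pairs, and the block leaves 1 residual degree of freedom. Leaving out 1 library at a time gave 1634 to 3123 genes higher and 1861 to 3310 lower, 5 to 8 members higher, 7 to 12 related genes higher and 3 lower, a members' median of 0.85 to 1.01, and a Magoh to Magohb difference of -0.54 to -0.20; the lowest gene counts came without total RNA replicate 2. The lone library left in a fraction is then assumed to vary like the others. Depth limits Magohb most, with 30 to 89 counts per library.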

Other observations

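The genes whose pattern over the 4 libraries lay nearest to that of Eif4a3 were Cndp2, a dipeptidase, Pgam1, a glycolytic enzyme, Rpl36, a ribosomal protein, Kars, the lysyl-tRNA synthetase, and Wdr53. Distances of centred log2 CPM were 0.018 to 0.046 among 8727 protein-coding genes averaging 10 CPM or more, whose median distance was 0.92. Their ratios ran from 0.85 to 0.90. With 4 libraries such a likeness describes these libraries only, and shared function or control was not tested.

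Reads that fell on more than 1 gene made up 4.96% and 8.58% of tallied reads in RPF replicates 1 and 2, and 0.755% and 0.719% in total RNA replicates 1 and 2. Among the members, Magohb overlaps the processed pseudogene Gm44958 on the same strand over 30.2% of its exon bases, Casc3 overlaps the antisense gene Gm12359 over 11.5% of its exon bases, and Acin1 overlaps 1700123O20Rik on the opposite strand over 4.40%. Gm44958 has no identifier in the count tables. Gm12359 held 2 to 3 counts in each library and 1700123O20Rik 125 to 309. Reads without strand cannot be told apart between the pairs on opposite strands. Strand does not separate Magohb from Gm44958 where they overlap. The part of these overlaps in the ratios of Magohb, Casc3 and Acin1 was not tested.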
